A study of Mus musculus with 8 samples.

Results

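Cartilage matrix genes and genes that direct chondrocyte differentiation were examined in the inner ear of mice whose Thra gene carries a frameshift. The 31 genes were taken by symbol from a fixed list, and all 31 were found among the 47517 symbols of each count file. Thra encodes the thyroid hormone receptor TRα1. The mutants were heterozygous for a frameshift that alters the function of this receptor, and the controls were their wild-type littermates. Both genotypes were untreated, were sampled at postnatal day 14 and comprised 4 libraries each. The labels give the tissue as inner ear, and the series' title speaks of cochlea. Strain and sex were not used here, and the labels do not say whether a library holds 1 animal, 1 ear or a pool, so the p-values measure the spread between these libraries, which may in part be technical.

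Chondrocytes build hyaline cartilage around fibrils of type II and type XI collagen, which carry type IX collagen on their surface and trap the proteoglycan aggrecan. In the growth plate these cells pass from a resting to a proliferating and then to a hypertrophic state, in which type X collagen is made before bone replaces the cartilage. Thyroid hormone promotes the step to hypertrophy, and TRα1 is the main receptor for the hormone in the skeleton. The bony capsule of the inner ear forms on a cartilage model, and the tectorial membrane over the hair cells also contains collagens of types II, IX and XI, so the collagen genes below are not restricted to chondrocytes in this organ.

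Thra itself averaged 107 ± 8.28 CPM in controls and 127 ± 10.2 CPM in mutants (SD, n = 4 each), with overlap, and counts per gene cannot show the frameshift. Libraries held between 18930841 and 23064578 counts. Levels are given as CPM, counts scaled to a common normalized library size of 1000000, and a floor of 3 counts lay between 0.132 and 0.159 CPM, a limit that covers counting error only. The 31 genes together took 0.270% to 0.729% of the counts of a wild-type library and 0.420% to 0.992% of those of a mutant library. The defining chondrocyte markers Col2a1, Acan, Col9a1, Sox9 and Matn1 were detected in every library, as was Col10a1, which defines hypertrophic chondrocytes. Matn3 and Ihh were detected by 5 to 23 and 4 to 20 counts per library. These 2 genes had too few counts for the expression filter, and the other 29 were tested.

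No cartilage gene differed between genotypes at a Benjamini-Hochberg adjusted p under 0.05 in edgeR's quasi-likelihood test with genotype as the only term, over the 21392 genes tested. Of the 29 tested members, 0 were called higher and 0 lower, where 0.00467% of all genes were called higher and 0.0374% lower. DESeq2 and limma-voom called 0 members as well, with 2 higher and 0 lower at an unadjusted p under 0.05 in each. With libraries paired by neighbouring title numbers, a pairing that the labels do not state, edgeR called Col2a1 and Col9a1 higher. That paired fit had 13 members higher and 1 lower at an unadjusted p under 0.05, with 6.53% of all genes higher. At that threshold in edgeR with genotype as the only term, 2 members were higher and 0 lower, Comp and Scrg1, against 2.21% of all genes higher and 3.09% lower. The same 2 genes were the members whose genotypes did not overlap, all higher in mutants, against 1.28% of all genes in that direction and 1.41% in the other. Fitted differences (log2 fold change, mutant minus wild-type) were positive for 20 members and negative for 9, with a median of 0.24 and a range of -0.71 to 1.08. Over all genes tested the median was -0.0061 and 48.3% were positive.

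Type II collagen, the main fibril of cartilage, is encoded by Col2a1 (chr15:97975602-98004695, minus strand, GRCm38). It stood at 2485, 633, 2677 and 1567 CPM in the wild-type libraries 1 to 4 and at 4689, 1173, 4091 and 2553 CPM in the mutant libraries 1 to 4. Mutant replicates 1 and 3 lay above every wild-type library, whereas mutant replicate 2 lay below 3 of the 4 wild-type libraries. Mean levels were 1841 ± 940 and 3126 ± 1583 CPM (SD, n = 4 each), a fold of 1.70 (log2 fold change 0.76 with SE 0.53, adjusted p = 0.976 in edgeR). Libraries of 1 genotype differed by more than the means did, up to 4.23-fold among wild-type and 4.0-fold among mutant libraries. The log2 fold change was 0.48 without wild-type replicate 2, 0.50 without mutant replicate 1 and 1.04 without mutant replicate 2.

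Type XI collagen, which nucleates the type II fibril, was highly expressed. Col11a1 (chr3:114030540-114220718) ranged from 372 to 1063 CPM in wild-type and from 755 to 1315 CPM in mutant libraries (log2 fold change 0.44, SE 0.30). Col11a2 (chr17:34039437-34066685) ranged from 505 to 1053 CPM and from 724 to 1285 CPM (log2 fold change 0.29, SE 0.25). The genotypes overlapped for both chains. Col27a1, a fibrillar collagen of developing cartilage, stood at 74.3 ± 23.3 and 70.3 ± 21.5 CPM (SD, n = 4 each), with a log2 fold change of -0.079 (SE 0.26) whose sign turned when single libraries were left out.

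**Figure D1:**
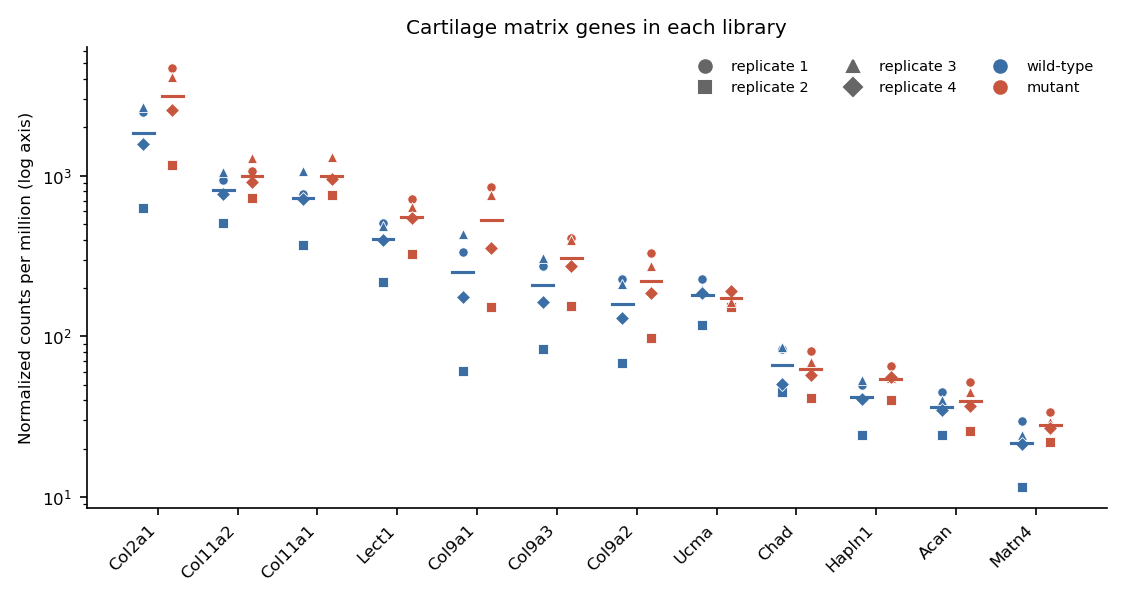
Normalized CPM (log axis) of 12 cartilage matrix genes, with symbols for replicates 1 to 4 of each genotype and a bar at the mean of 4 libraries. Replicate 2 (squares) is the lowest library of both genotypes for all 12 genes, which were chosen after their values had been seen. Of the 29 tested members 15 share this order, and the matrix genes Col10a1, Col27a1, Comp, Matn1, Prg4, Scrg1 and 3110079O15Rik do not. The genotypes overlap for each of the 12 genes, as for Col2a1 at 633 to 2677 and 1173 to 4689 CPM.

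Type IX collagen decorates the fibril surface and is a heterotrimer of the products of Col9a1, Col9a2 and Col9a3. Col9a1 (chr1:24177610-24252684, plus strand) had the largest fitted difference of the 29 tested members. It stood at 333, 60.9, 437 and 175 CPM in the wild-type libraries 1 to 4 and at 856, 152, 759 and 354 CPM in the mutant libraries 1 to 4. Mutant replicates 1 and 3 exceeded all wild-type libraries, while mutant replicate 2 was below 3 of them. The mean was 251 ± 167 CPM in wild-type and 531 ± 333 CPM in mutants (SD, n = 4 each), with a fitted log2 fold change of 1.08 (SE 0.72) and an adjusted p of 0.971 in edgeR. Without wild-type replicate 2 it was 0.75, without mutant replicate 1 it was also 0.75, and without wild-type replicate 3 it was 1.48. Col9a2 ranged from 68.3 to 227 CPM in wild-type and 98.1 to 332 CPM in mutant libraries (log2 fold change 0.48, SE 0.47), and Col9a3 from 84.0 to 309 and 154 to 412 CPM (log2 fold change 0.57, SE 0.45). All 3 chains were thus higher on average in mutants and all 3 overlapped between genotypes.

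The sequences upstream of the genes for the collagen chains that varied together are shown for 3 genes whose window lies outside annotated exons. Each run is the 250 bases before the RefSeq start on GRCm38.p6, 5′ to 3′ on the gene's strand. These are chr1:24177360-24177609 for Col9a1, chr3:114030290-114030539 for Col11a1 and chr17:34038888-34039137 for Col11a2, all on the plus strand. Capitals mark 3 motifs that were searched on both strands. The hexamer AGGTCA is bound by thyroid hormone receptors and other nuclear receptors and reads TGACCT on the other strand. The core ACAAAG is bound by SOX proteins. The TATA box was searched as TATAAA.
Col9a1: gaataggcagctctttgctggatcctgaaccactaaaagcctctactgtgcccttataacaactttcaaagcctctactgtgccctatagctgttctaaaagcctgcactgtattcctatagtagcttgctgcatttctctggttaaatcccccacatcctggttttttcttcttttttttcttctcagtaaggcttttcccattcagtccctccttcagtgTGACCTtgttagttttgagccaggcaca
Col11a1: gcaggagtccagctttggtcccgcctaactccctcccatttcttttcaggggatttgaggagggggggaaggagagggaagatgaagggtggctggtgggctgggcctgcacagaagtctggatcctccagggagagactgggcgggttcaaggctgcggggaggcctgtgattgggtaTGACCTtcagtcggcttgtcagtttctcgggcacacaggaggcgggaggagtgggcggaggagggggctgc
Col11a2: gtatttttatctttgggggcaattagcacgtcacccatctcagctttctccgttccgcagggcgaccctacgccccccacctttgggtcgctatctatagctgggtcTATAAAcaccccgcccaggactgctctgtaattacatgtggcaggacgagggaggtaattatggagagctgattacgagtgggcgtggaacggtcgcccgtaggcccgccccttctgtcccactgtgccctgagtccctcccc
In these letters Col9a1 and Col11a1 each hold TGACCT and Col11a2 holds TATAAA, with no overlap between motifs. RefSeq promoters were matched for 23 of the 31 genes, 31 windows in all. AGGTCA on either strand was in 4 of these 31 windows and in 14.0% of all 32851 windows. ACAAAG was in 6 of 31 and in 16.5% of all, and TATAAA in 5 of 31 and 12.4% of all. The windows with AGGTCA belong to 3 genes, those with ACAAAG to 2 (Col10a1 and Sox6) and those with TATAAA to 5. Sox6 has several starts and holds more than 1 of the windows with AGGTCA and with ACAAAG, so windows are not separate genes. For Col9a1 RefSeq lists more than 1 start, and counts per gene do not separate the transcripts. A match of letters describes the window and does not show that a factor binds there.

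Aggrecan, the large proteoglycan that holds water in cartilage, is encoded by Acan (chr7:79053483-79115099). It was measured at 45.4, 24.3, 40.3 and 34.6 CPM in the wild-type libraries 1 to 4 and at 52.1, 25.7, 45 and 36.8 CPM in the mutant libraries 1 to 4. The genotypes interleaved (36.1 ± 9.05 and 39.9 ± 11.3 CPM, SD, n = 4 each), with a fitted log2 fold change of 0.14 (SE 0.25). Hapln1, the link protein that anchors aggrecan to hyaluronan, ranged from 24.3 to 53.4 CPM in wild-type and from 40.4 to 65.5 CPM in mutants (log2 fold change 0.37, SE 0.24). The chondrocyte-secreted inhibitor of vessel growth chondromodulin is listed under the older symbol Lect1 (now Cnmd). It ranged from 219 to 505 CPM in wild-type and from 324 to 722 CPM in mutants (log2 fold change 0.47, SE 0.31).

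Comp and Scrg1 were the members that separated by genotype, with small differences. Comp (chr8:70373558-70382066) encodes cartilage oligomeric matrix protein, a pentamer that binds collagen fibrils in cartilage and tendon. It stood at 5.81, 5.99, 5.20 and 5.47 CPM in the wild-type libraries 1 to 4 and at 6.80, 9.56, 9.01 and 7.15 CPM in the mutant libraries 1 to 4. Every mutant library was above every wild-type library, with means of 5.62 ± 0.349 and 8.13 ± 1.36 CPM (SD, n = 4 each). The fold was 1.45 (log2 fold change 0.53, SE 0.15, unadjusted p = 0.00580), and the adjusted p of 0.879 in edgeR did not pass. In the 21 alternatives the adjusted p of Comp ran from 0.188 to 1 and its difference stayed positive.

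Scrg1 (chr8:57455923-57477585) encodes a small secreted protein made by chondrocytes and their mesenchymal precursors. It was measured at 7.29, 6.51, 6.87 and 6.49 CPM in the wild-type libraries 1 to 4 and 9.09, 8.18, 10.5 and 9.37 CPM in the mutant libraries 1 to 4. Mutant libraries again lay above all wild-type libraries (6.79 ± 0.378 and 9.28 ± 0.940 CPM, SD, n = 4 each), a fold of 1.37 (log2 fold change 0.45, SE 0.12, unadjusted p = 0.00454, edgeR adjusted p = 0.867). These values rest on 1332 counts over all libraries for Scrg1 and 1142 for Comp. Replicate 2 was the highest mutant library for Comp and the lowest for Scrg1. Of 6 markers of tendon and fibrous tissue (Tnmd, Scx, Mkx, Fmod, Thbs4 and Kera), all had positive differences, 0 were called, and Fmod alone did not overlap between genotypes. At an unadjusted p under 0.05 in edgeR, 4 of the 6 were higher (Fmod, Thbs4, Tnmd and Mkx), against 2.21% of all genes. The summed level of the 6 markers was 96.3 to 126 CPM in wild-type and 137 to 238 CPM in mutant libraries, without overlap. Fmod was the largest term of this sum, at 77.4 ± 7.82 and 140 ± 31.3 CPM (SD, n = 4 each), so the sum largely repeats that gene. Of Schwann cell markers 5 of 6 were positive with sums of 6951 to 10880 and 9797 to 12914 CPM, which overlapped. The part of these tissues in the levels of Comp and Scrg1 was not tested. In bulk tissue a change in the number of cells and a change in RNA per cell cannot be told apart.

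**Figure D2:**
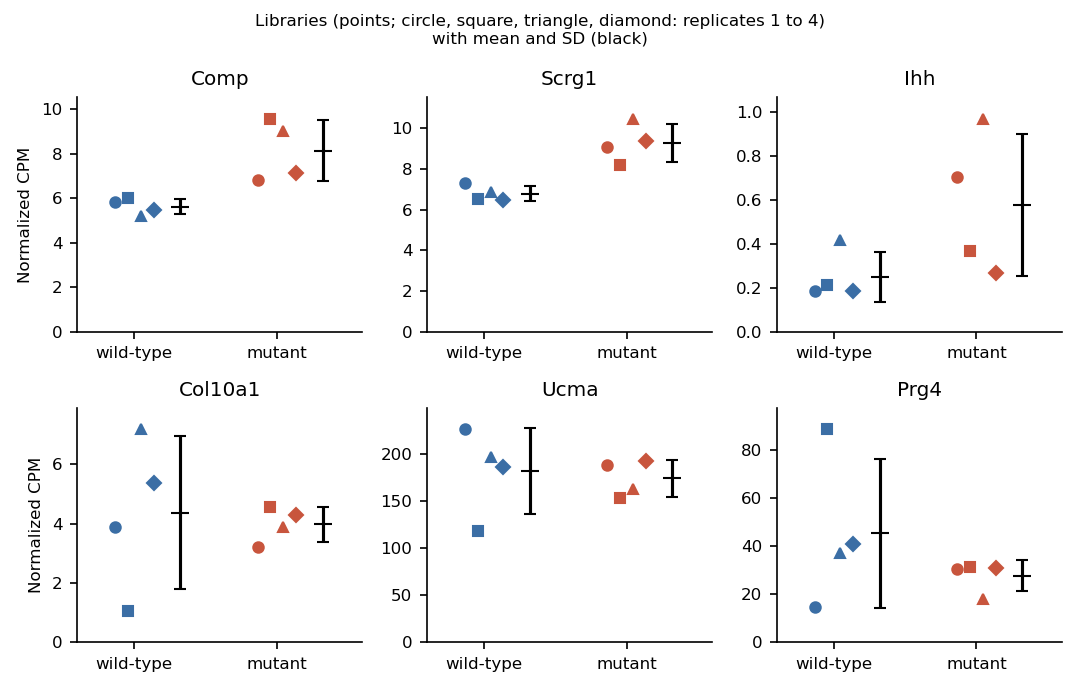
Normalized CPM of Comp, Scrg1, Ihh, Col10a1, Ucma and Prg4 in each library (points; circle, square, triangle and diamond for replicates 1 to 4) with the mean and SD of 4 libraries in black. Mutant libraries lie above all wild-type libraries for Comp (6.80 to 9.56 against 5.20 to 5.99 CPM) and Scrg1, and the genotypes overlap in the other 4 panels.

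The other small matrix proteins overlapped between genotypes. Matn1, a matrilin of hyaline cartilage, was scarce at 1.53, 1.63, 1.46 and 1.1 CPM in the wild-type libraries 1 to 4 and 1.54, 1.24, 1.45 and 1.43 CPM in the mutant libraries 1 to 4, with a log2 fold change of -0.014 (SE 0.21). Matn3, another cartilage matrilin, had 82 counts over all libraries (0.454 ± 0.132 and 0.533 ± 0.366 CPM, SD, n = 4 each). Matn4, a matrilin also found outside cartilage, stood higher, at 21.8 ± 7.67 and 28.0 ± 4.85 CPM (SD, n = 4 each), with a fitted log2 fold change of 0.37 (SE 0.26). The collagen-binding leucine-rich protein gene Chad was at 66.5 ± 21.7 and 62.4 ± 16.8 CPM (SD, n = 4 each), with a fitted log2 fold change of -0.092 (SE 0.27). The transmembrane proteoglycan gene 3110079O15Rik, now named Snorc, had 96 counts in all and a log2 fold change of 0.50 (SE 0.38). Cytl1, a cytokine-like secreted protein of chondrocytes, ranged from 15.6 to 24.7 CPM in wild-type and from 13.4 to 25 CPM in mutants (log2 fold change -0.036, SE 0.21).

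Genes of resting and joint-surface cartilage showed no common direction. Ucma (chr2:4976122-4985748), a Gla-rich matrix protein of upper growth-plate chondrocytes, stood at 227, 118, 198 and 187 CPM in the wild-type libraries 1 to 4 and 189, 153, 163 and 193 CPM in the mutant libraries 1 to 4. Its means were close (182 ± 45.8 and 174 ± 19.3 CPM, SD, n = 4 each), with a fitted log2 fold change of -0.064 (SE 0.18). Prg4 encodes lubricin, which coats joint surfaces. It was measured at 14.9, 88.6, 37.2 and 41.2 CPM in the wild-type libraries 1 to 4 and at 30.5, 31.6, 18.1 and 30.9 CPM in the mutant libraries 1 to 4. Wild-type replicate 2, the lowest wild-type library for the type II, IX and XI collagens, was the highest for Prg4. The log2 fold change of -0.71 (SE 0.49, edgeR adjusted p = 0.976) shrank to -0.16 when that library was left out. Pthlh, the signal of resting chondrocytes that delays hypertrophy, ranged from 1.90 to 4.25 CPM in wild-type and 1.99 to 4.66 CPM in mutants (log2 fold change 0.20, SE 0.33). Among the intermediate-layer protein genes, the log2 fold change was 0.20 (SE 0.31) for Cilp and 0.34 (SE 0.23) for Cilp2, and the wild-type and mutant ranges overlapped.

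Among genes of prehypertrophic and hypertrophic chondrocytes, Ihh was near the floor and the others were detected at up to 30.4 CPM. Col10a1 (chr10:34389981-34397085), the type X collagen of hypertrophic cells, stood at 3.90, 1.05, 7.18 and 5.38 CPM in the wild-type libraries 1 to 4 and at 3.20, 4.55, 3.88 and 4.29 CPM in the mutant libraries 1 to 4. The mutant values lay inside the wild-type range (4.38 ± 2.59 and 3.98 ± 0.587 CPM, SD, n = 4 each), with a fitted log2 fold change of -0.14 (SE 0.46). Its direction turned between libraries with 1 number in the title (-0.30) and those with 2 (0.60), a difference in labelling treated as a possible batch. Ihh, the prehypertrophic signal that drives proliferation and induces Pthlh, had 4, 4, 8 and 4 counts in the wild-type libraries 1 to 4 and 16, 8, 20 and 5 counts in the mutant libraries 1 to 4. Mutant replicates 1 and 3, the libraries with the most Col2a1, also had the most Ihh, and the genotypes overlapped (0.249 ± 0.112 and 0.576 ± 0.322 CPM, SD, n = 4 each). Without the expression filter its log2 fold change was 1.20 (SE 0.57, edgeR adjusted p = 0.808). Runx3, a transcription factor of maturing chondrocytes that is also made by lymphocytes and sensory neurons, ranged from 4.97 to 5.93 CPM in wild-type and from 3.86 to 8.0 CPM in mutants (log2 fold change 0.25, SE 0.23). Markers of T and natural killer cells summed to 2.03 to 6.30 CPM in wild-type and 1.07 to 4.69 CPM in mutant libraries. Trps1, a repressor of chondrocyte maturation, ranged from 17.9 to 25.8 and from 18.5 to 30.4 CPM (log2 fold change 0.24, SE 0.17).

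Transcription factors that hold the chondrocyte state overlapped between genotypes. Sox9 (chr11:112782224-112787760), the master regulator of the lineage, stood at 78.5, 79.2, 76.4 and 67.8 CPM in the wild-type libraries 1 to 4 and 74.6, 85.3, 73.8 and 84.0 CPM in the mutant libraries 1 to 4. The libraries of the genotypes interleaved (log2 fold change 0.074, SE 0.083). Sox5, a partner of Sox9 in collagen gene activation, was at 34.6 ± 5.10 and 36.3 ± 4.72 CPM (SD, n = 4 each), with a fitted log2 fold change of 0.070 (SE 0.13). Sox6, the other partner, was at 42.3 ± 12.4 and 32.4 ± 5.94 CPM (SD, n = 4 each), with a fitted log2 fold change of -0.38 (SE 0.21). Wwp2, a ubiquitin ligase whose gene hosts the cartilage microRNA miR-140, was at 147 ± 2.01 and 135 ± 26.0 CPM (SD, n = 4 each), with a fitted log2 fold change of -0.13 (SE 0.13). Sox9, Sox5 and Sox6 are also made by supporting cells or glia of the inner ear.

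By zone, 18 members were assigned to proliferating, 6 to resting or joint-surface and 4 to prehypertrophic or hypertrophic chondrocytes, and 3 (Matn4, Scrg1 and Wwp2) to none. Of the 17 tested proliferating genes 13 had positive differences and the median was 0.37. The 6 resting and joint-surface genes had 3 positive and a median of 0.081. The 3 tested prehypertrophic or hypertrophic genes had 2 positive, Trps1 and Runx3, and a median of 0.24, while the type X collagen gene Col10a1 was at -0.14. The median of the resting genes ranged from -0.083 to 0.19 with single libraries left out. In each zone 0 genes were called, and differences between zones were not tested. Per 1000 Col2a1 counts there were 1.57, 1.66, 2.68 and 3.43 Col10a1 counts in the wild-type libraries 1 to 4 and 0.683, 3.88, 0.948 and 1.68 in the mutant libraries 1 to 4. The ratio of Col10a1 to Col2a1 thus overlapped between genotypes (2.34 ± 0.889 and 1.80 ± 1.45, SD, n = 4 each). Col2a1 is not restricted to chondrocytes in this organ, so the ratio does not measure hypertrophic against proliferating cartilage. Acan counts per 1000 Col2a1 counts overlapped likewise, at 15 to 38.3 in wild-type and 11 to 21.9 in mutants.

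**Figure D3:**
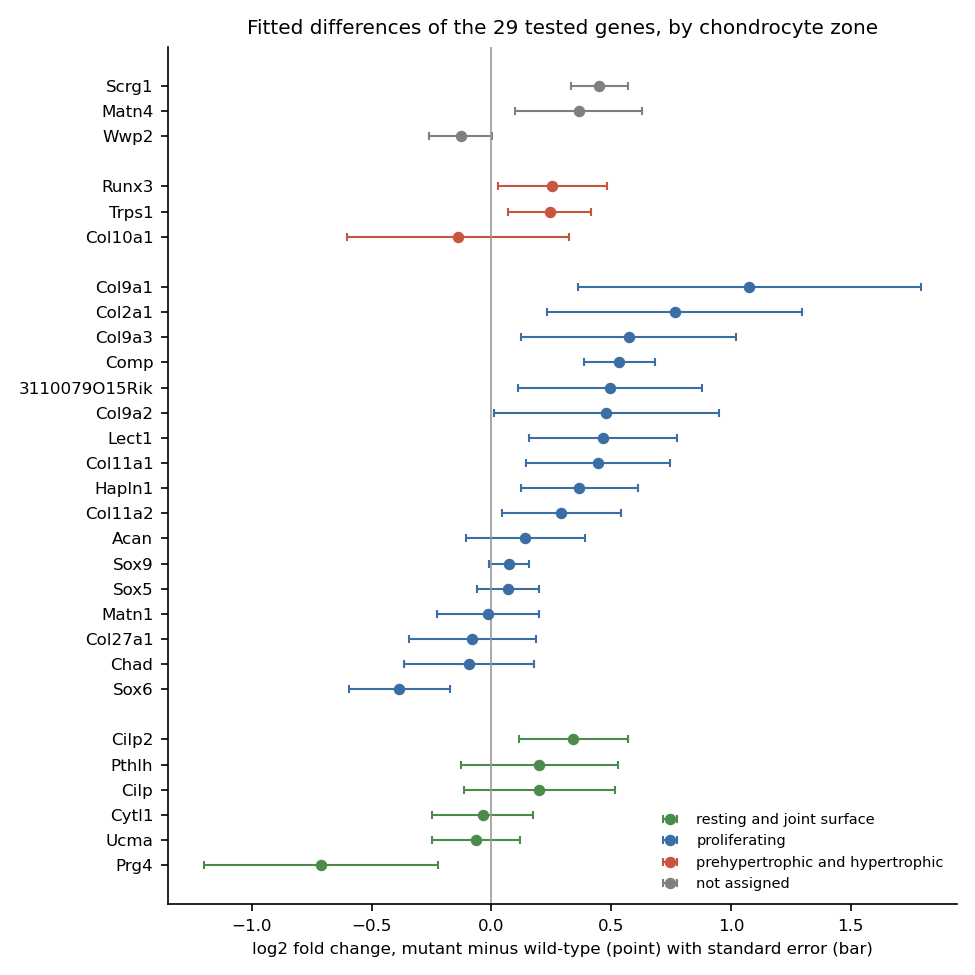
Fitted log2 fold change, mutant minus wild-type, of the 29 tested genes (points) with its standard error (bars), grouped by the chondrocyte zone in which each gene is best known. Proliferating genes range from -0.38 (Sox6) to 1.08 (Col9a1), the widest error bar is that of Col9a1 (SE 0.72), and no gene passed the adjusted threshold.

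Libraries of the same genotype differed more in most cartilage genes than in the typical gene. The standard deviation of log2 CPM within a genotype had a median of 0.42 over the 29 tested members, against 0.23 over all genes tested, and 23 of the 29 were above the latter value. It was 1.21 for Col9a1 and 0.93 for Col2a1, at percentiles 93.5 and 92.7 of all genes tested, and 0.11 for Sox9, at percentile 11.5. Replicate 2 was the lowest wild-type library for 17 of the 29 members and the lowest mutant library for 17, and for 15 members it was the lowest of both. These shares are 58.6%, 58.6% and 51.7%, whereas over all genes tested they were 26.4%, 28.5% and 13.9%. Replicate numbers follow the order of deposit, and same-numbered libraries of the genotypes also carry neighbouring title numbers. The labels do not say what title numbers mean, so the shared number need not mean a shared litter or day. With these pairs as blocks, an alternative treated below, the standard error was 0.083 for Col2a1, 0.11 for Col9a1 and 0.54 for Col10a1. Without blocks it was 0.53, 0.72 and 0.46.

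Other tissues differed between the same libraries. Erythroid markers summed to 50056 CPM in wild-type replicate 2 against 12936 to 25920 CPM in the other wild-type libraries, and to 19108 CPM in mutant replicate 2 against 7707 to 17625 CPM. The sum of osteoblast and osteocyte markers was lowest in replicate 2 of both genotypes, at 6996 and 9745 CPM against 11631 to 12661 and 11724 to 17255 CPM. The largest terms of this sum were Col1a1 and Col1a2, with wild-type means of 4043 and 3121 CPM. The lists of other cartilage genes also had their lowest sums there. In wild-type and mutant replicate 2 these were 827 and 905 CPM for proliferating and 3257 and 4361 CPM for hypertrophic and mineralizing genes. Resting and periarticular genes summed to 1205 and 1061 CPM. Hedgehog and PTHrP pathway genes (384 and 421 CPM) and matrix degradation genes (973 and 1214 CPM) were lowest there as well. Single abundant genes were large terms of the zone sums. These were Epyc for proliferating, Spp1 for hypertrophic and Clu for resting genes, with wild-type means of 572, 2182 and 1148 CPM. The sums therefore do not show that most genes of a zone share this order. Markers of the otic gel and tectorial membrane summed to 436 CPM in wild-type replicate 2, the lowest of its genotype at up to 596 CPM. They summed to 498 CPM in mutant replicate 2 and a near-equal 496 CPM in mutant replicate 4, above 364 and 358 CPM in mutant replicates 1 and 3. Ceacam16 was the largest term of this sum, at 340 ± 68.2 and 232 ± 63.2 CPM (SD, n = 4 each). Airway and middle ear epithelium markers summed to 194 to 655 CPM in wild-type and 4.80 to 7.40 CPM in mutant libraries, and Bpifa1, Krt4, Krt5 and Krt14 among them were called lower in edgeR. Their part in the cartilage values was not tested. With both replicates 2 left out, an alternative added once the values had been seen, Col2a1 had a log2 fold change of 0.75 (SE 0.29, edgeR adjusted p = 0.883) and Col9a1 of 1.06 (SE 0.45, adjusted p = 0.972).

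**Figure D4:**
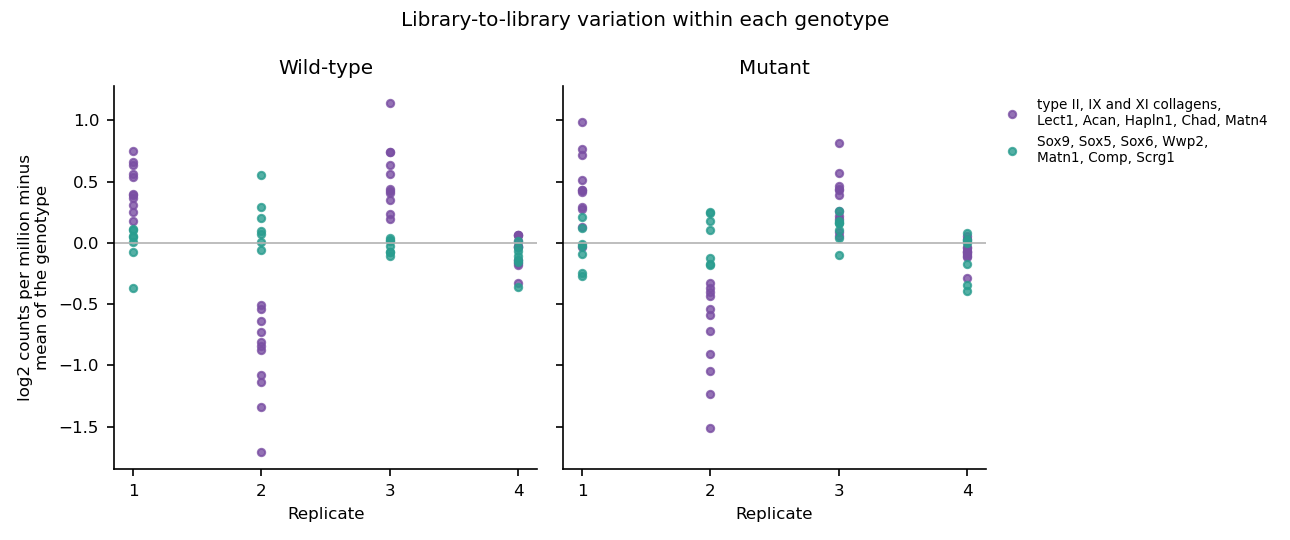
Each point is the log2 CPM of a gene in a library minus the mean of its genotype, for replicates 1 to 4 of wild-type (left) and mutant (right), with 2 groups of genes that were chosen after their values had been seen. The type II, IX and XI collagens, Lect1, Acan, Hapln1, Chad and Matn4 all lie lowest in replicate 2 of both genotypes, whereas Sox9, Sox5, Sox6, Wwp2, Matn1, Comp and Scrg1 do not share this order.

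Title form, with 1 number for replicates 1 and 4 and 2 numbers for replicates 2 and 3 of each genotype, was checked as a possible batch. Within libraries of 1 and 2 numbers the log2 differences were 0.81 and 0.75 for Col2a1, 1.19 and 1.06 for Col9a1, 0.31 and 0.73 for Comp and 0.42 and 0.47 for Scrg1. The direction turned for Col10a1, for Prg4 (0.31 and -1.26), for Pthlh (0.85 and -0.45) and for Runx3 (-0.12 and 0.52), and also for Matn1, Matn3 (-0.48 and 0.58), Chad and Ucma.

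Levels can be compared between genes per kb of annotated exon. In wild-type libraries Lect1 (219 ± 71.5 CPM per kb, SD, n = 4), Ucma (206 ± 51.8) and Col2a1 (199 ± 102) were highest and did not differ beyond their spread. Col11a2 followed at 119 ± 34.6 CPM per kb, and Col11a1 and the type IX chains lay between 49.6 and 57.3 CPM per kb with overlapping ranges. Chad at 39.6 ± 12.9 CPM per kb did not overlap with the next gene, Cytl1, at 19.3 ± 3.52 CPM per kb. Acan reached 4.84 ± 1.21 CPM per kb. The lowest were Matn3 at 0.151 ± 0.0437 and Ihh at 0.0817 ± 0.0368 CPM per kb (SD, n = 4 each). Exons of Col9a3 share 6.07% of their length with Tcfl5 on the opposite strand, those of Sox5 9.25% with Sox5os1 and those of Prg4 4.77% with Tpr, so these values may include antisense reads, as the sources used here do not say whether counting used strand.

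**Figure D5:**
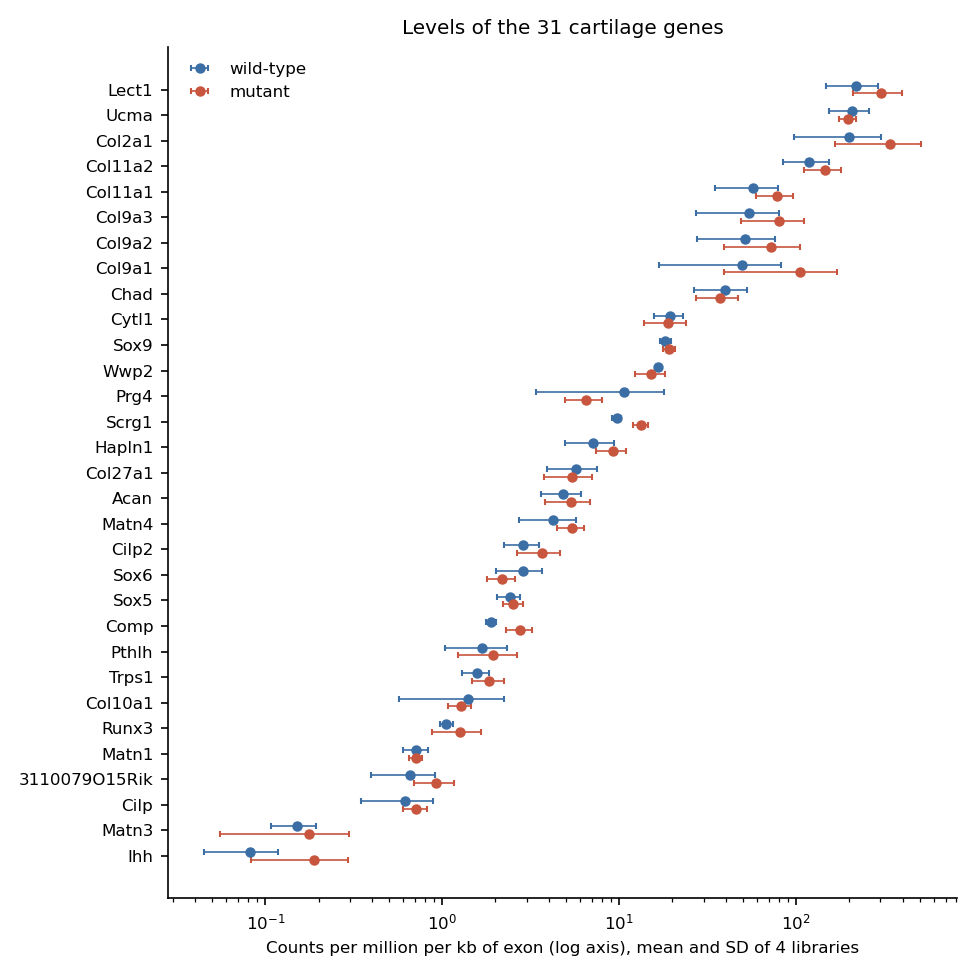
Level of each of the 31 genes in CPM per kb of exon (log axis), as the mean and SD of 4 wild-type and 4 mutant libraries. Lect1, Ucma and Col2a1 lie near 200 CPM per kb in wild-type libraries (219, 206 and 199), and Matn3 and Ihh lie lowest.

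Further genes of the pathway came from lists that exclude the 31 members, some with genes in common (Gas1, Ibsp, Mmp13, Pth1r and Sp7). In each of these lists 0 genes were called. The counts below stand against 48.3% of all genes tested with a positive difference, and 2.21% higher and 3.09% lower at an unadjusted p under 0.05. Of 18 tested hypertrophic and mineralizing genes 14 were positive (median 0.25), and 3 were higher at an unadjusted p under 0.05. The smallest p were those of Cyr61, a matricellular protein (51.7 ± 12.6 and 73.9 ± 6.58 CPM, SD, n = 4 each), with a fitted log2 fold change of 0.51 (SE 0.17) and an adjusted p of 0.907 in edgeR, and Ibsp, the mineral-binding bone sialoprotein (log2 fold change 0.81, SE 0.30, adjusted p = 0.924). The collagenase gene Mmp13 had a log2 fold change of -0.34 (SE 0.28) and the phosphate-releasing enzyme gene Alpl one of 0.39 (SE 0.22). Among 18 tested proliferating genes 14 were positive (median 0.16), led by the chondroitin synthase gene Chsy1 (log2 fold change 0.46, SE 0.20) and the sulfate-donor synthase gene Papss2 (log2 fold change 0.25, SE 0.11).

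Of 11 tested resting and periarticular genes 6 were positive (median 0.11), with 1 higher and 1 lower at an unadjusted p under 0.05. Sfrp5, a Wnt inhibitor, was at 18.7 ± 4.25 and 11.3 ± 2.95 CPM (SD, n = 4 each), with a fitted log2 fold change of -0.73 (SE 0.22) and an adjusted p of 0.907 in edgeR. Gas1, a Hedgehog co-receptor, had a log2 fold change of 0.41 (SE 0.14). Of the 14 Hedgehog and PTHrP pathway genes 13 were positive (median 0.23), and 4 were higher at an unadjusted p under 0.05. Ptch1, the Hedgehog receptor and itself a target of the pathway, stood at 39.3 ± 2.81 and 47.0 ± 1.75 CPM without overlap (SD, n = 4 each), with a fitted log2 fold change of 0.26 (SE 0.076) and an adjusted p of 0.907 in edgeR. Hhip, a ligand-trapping target, was at 19.5 ± 4.66 and 30.4 ± 6.54 CPM (SD, n = 4 each), with a fitted log2 fold change of 0.64 (SE 0.21) and an adjusted p of 0.907 in edgeR. Pth1r, the receptor for the Pthlh product, had a log2 fold change of 0.40 (SE 0.17) and Gli1, a transcriptional effector and target, one of 0.53 (SE 0.35). Of 11 matrix degradation genes 7 were positive (median 0.20), with 3 higher and 1 lower at an unadjusted p under 0.05. The log2 fold change was 0.59 (SE 0.18) for the aggrecanase gene Adamts4 and 0.26 (SE 0.10) for the related Adamts1, both with an adjusted p of at least 0.907 in edgeR.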

How the data were processed

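RNA from whole inner ear of 4 wild-type and 4 mutant samples was extracted with TRIzol and a silica column kit and sequenced from total RNA libraries that carry unique molecular identifiers, per the labels' protocols. The deposited files hold raw counts per gene symbol, and the submitters' processing notes list FastQC, STAR and HTSeq, with no version, and build mm10. The sources used here do not give the annotation, the strand setting or the use made of the identifiers. Of 47517 symbols, 15 have the form of a spreadsheet date number and were kept.

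Groups were taken from the source labels. Counts were fitted with edgeR 4.0.16 in R 4.3.3 (trimmed mean of M-values, default expression filter, robust quasi-likelihood, genotype as the only term), and p-values were adjusted by Benjamini-Hochberg over all 21392 genes tested. The procedure was tested on simulated data. A standard error is the log2 fold change divided by the square root of F. Coordinates and exon lengths came from GENCODE M21 on GRCm38, with 29 genes matched by symbol and 2 by older symbol, and upstream sequences from RefSeq on GRCm38.p6. Alternatives were 3 other scalings, no filter, a filter of 1 CPM or more in 4 or more libraries, the tests of DESeq2 1.42.0 and of limma-voom (limma 3.58.1), non-robust dispersions, title form as a term, blocks of neighbouring title numbers, haemoglobin or mitochondrial genes left out, and each library left out. Named were all 31 members, the called genes or else the 2 smallest p of each other list, and some further genes after their values were seen (Thra, Col9a1 per library, Mmp13, Alpl, Pth1r, Gli1, Tnmd, Scx, Mkx and Kera). The members and lists were chosen with earlier results of these data known. No 2 libraries agreed within sampling noise (lowest chi-square per degree of freedom 17.3).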

Additional observations from a re-analysis of the deposited data

Results flagged for a closer look

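In 3 of the 62 groups of 4 libraries formed by the 31 genes and 2 genotypes, a library stood apart from the other libraries by Dixon's criterion, which chance meets in about 1 in 20 groups. Ihh was at 0.416 CPM in wild-type replicate 3, against 0.184 to 0.210 CPM in the other wild-type libraries, a gap between 8 and 4 counts. Sox5 was at 42.2 CPM in wild-type replicate 2, against 31.1 to 32.6 CPM in the other wild-type libraries. Prg4 was at 18.1 CPM in mutant replicate 3, against 30.5 to 31.6 CPM in the other mutant libraries.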

How the results depend on the processing

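No cartilage gene was called under the other scalings, filters, tests, covariate or left-out libraries, and the exception was the fit with neighbouring title numbers as a block. This pairing is assumed, since the labels do not state it. The within-genotype deviations of same-numbered libraries correlated at 0.13, 0.25, 0.19 and -0.038 over genes, and 5 of the 8 libraries correlated best with their own number. These values do not settle whether the libraries were paired. With the block, 2 cartilage genes were called higher in edgeR, Col2a1 (log2 fold change 0.78, SE 0.083, adjusted p = 0.0497) and Col9a1 (log2 fold change 1.12, SE 0.11, adjusted p = 0.0451), and 13 members were higher and 1 lower at an unadjusted p under 0.05, with 6.53% of all genes higher. Mutants were higher in 4 of 4 neighbouring pairs for both genes. The same held for Col9a2, Col9a3, Col11a1, Col11a2, Acan, Hapln1, Lect1, Matn4, Comp, Scrg1, Cilp2, Trps1, Ihh and 3110079O15Rik. For Col10a1, Col27a1, Chad, Sox6 and Prg4 mutants were higher in 1 of 4 pairs. The share over all genes was not computed. The fit with the block called 17 genes higher (0.0795%) and 12 lower (0.0561%) in all. Over all genes, 1 higher and 8 lower genes became 19 and 49 in DESeq2, and 5 were higher in limma-voom. There were 5 lower genes with non-robust dispersions and 4 with title form as covariate, and 6 higher genes with both replicates 2 left out. With single libraries left out, 2 to 5 genes were higher and 4 to 9 lower. Signs turned only for members whose fitted difference was smaller than its standard error, for which the cause was not tested. Sox9, Sox5 and Wwp2 also had such differences and kept their sign in every setting. The log2 fold change of Col10a1 was 0.13 in limma-voom and 0.063 with the block, that of Matn1 was 0.0014 in limma-voom and 0.11 with both replicates 2 left out, and that of Cytl1 was 0.0033 in the latter setting. With single libraries left out, ranges were -0.013 to 0.30 for Acan, -0.24 to 0.060 for Chad, -0.021 to 0.48 for Cilp, -0.46 to 0.20 for Col10a1, -0.31 to 0.14 for Col27a1, -0.17 to 0.11 for Cytl1, -0.12 to 0.053 for Matn1, -0.053 to 0.50 for Pthlh and -0.22 to 0.068 for Ucma. Depth limited Ihh, Matn3 and 3110079O15Rik, with at most 96 counts in all libraries together.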

Other observations

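Collagen chains that assemble into the same trimer were not counted in a fixed proportion. Per 1000 Col9a3 counts there were 1219, 725, 1414 and 1061 Col9a1 counts in the wild-type libraries 1 to 4 and 2078, 989, 1912 and 1292 in the mutant libraries 1 to 4, whereas Col9a2 gave 690 to 831 in wild-type and 638 to 806 in mutants. The proportion of Col9a1 thus spanned more of a range than that of Col9a2, was lowest in replicate 2 of both genotypes and overlapped between genotypes. For type XI collagen, Col11a1 counts per 1000 Col11a2 counts were 737 to 1010 in wild-type and 887 to 1042 in mutants. Col2a1 counts per 1000 Col11a2 counts ran from 1254 to 2653 in wild-type and from 1620 to 4384 in mutants, again lowest in replicate 2 of both genotypes.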
